A study of Mus musculus with 4 samples.

Results

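Transcripts of 9 genes of the transforming growth factor beta (TGF-beta) pathway were examined in 4 mouse RNA-seq libraries. The genes were Tgfb1, Tgfbi, Tgfbr1, Tgfbr2, Smad2, Smad3, Smad7, Ski and Skil. They were taken by exact match of the gene symbol, which gave 9 of the 55367 gene rows in each count table, and all 9 passed the filter on low counts. Per the protocol the cells were sorted as CD45.2+CD8+ (the cell type label names only CD45.2+) from dissociated tumors grown from the mouse melanoma cell line B16-F10. The titles placed 2 libraries in each of the groups WT and KO. The series text speaks of tumor-infiltrating lymphocytes of WT mice and of mice with loxP-flanked Satb1 alleles (Satb1 F/F) that carry ThPOK-cre or E8I-cre, and it does not say which driver the KO libraries carry. The SATB1 protein organizes the genome of T cells. Per the study, ThPOK-cre deletes in CD4-lineage cells and E8I-cre in mature CD8+ cells, so that other cells of either mouse would keep Satb1. The study describes young adult mice of mixed sexes but no bulk RNA-seq of this sort, so that its account of mice and methods is assumed to cover these libraries; the age and sex of these animals, and whether each library came from a single animal, were not given in the labels, so p-values measure only the spread between these libraries, which may be technical.

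TGF-beta is secreted in a latent complex and acts once it is released, by bringing together a type II receptor (Tgfbr2) and a type I receptor (Tgfbr1). The activated type I receptor phosphorylates SMAD2 and SMAD3, which enter the nucleus with SMAD4 and act on target genes. SMAD7 inhibits the receptors, and the related proteins SKI and SKIL (also called SnoN) repress transcription at SMAD-bound genes; both Smad7 and Skil are well-known targets of the pathway and so part of its feedback. In tumors the pathway is known for restraining cytotoxic T cells and for its effects on macrophages and stroma. Tgfbi, a secreted matrix protein named for its induction by TGF-beta, is not a ligand.

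Promoter windows of RefSeq (GRCm38.p6) were examined for 6 of the 9 genes, namely Tgfb1, Tgfbi, Tgfbr1, Tgfbr2, Smad3 and Ski. These 6 genes had 7 start sites in all. No window of Smad2, Smad7 or Skil was among those examined, so that their promoters are not described. Whether RefSeq gives a start for these 3 genes was not tested. The sequences shown belong to the 3 members that were lower in both KO-labeled libraries in normalized CPM, and give the bases before the RefSeq start that also lie outside the gene body of GENCODE M21. Capitals mark the letters CAGAC, the core of the element that SMAD3 binds, or its reverse complement.
Tgfb1 (chr7:25686752-25687001, plus strand): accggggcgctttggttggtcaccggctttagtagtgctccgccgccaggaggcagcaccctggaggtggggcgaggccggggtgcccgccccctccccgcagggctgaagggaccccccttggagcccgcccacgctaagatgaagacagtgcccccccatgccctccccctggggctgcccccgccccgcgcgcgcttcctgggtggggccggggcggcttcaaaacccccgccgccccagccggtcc
Tgfbi (chr13:56609336-56609522, plus strand): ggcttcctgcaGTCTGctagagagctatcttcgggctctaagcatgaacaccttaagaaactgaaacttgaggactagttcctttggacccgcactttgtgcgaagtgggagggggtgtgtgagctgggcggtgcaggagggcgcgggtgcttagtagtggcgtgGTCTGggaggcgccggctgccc
Ski (chr4:155222593-155222785, minus strand): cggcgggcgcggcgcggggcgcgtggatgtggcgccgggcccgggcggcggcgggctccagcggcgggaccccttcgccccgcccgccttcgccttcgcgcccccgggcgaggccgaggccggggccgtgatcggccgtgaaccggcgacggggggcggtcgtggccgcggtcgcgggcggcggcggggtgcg

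Over the 250 bases before each start, searched on both strands, CAGAC occurred 2 times for Tgfbi, 1 time for Tgfbr2 and 1 time for the downstream start of Tgfbr1, and 0 times for Tgfb1, Ski, Smad3 and the upstream start of Tgfbr1. Of all 32851 promoter windows of this length, 42.2% held it. The AP-1 motif TGANTCA (in 6.75% of all windows), the palindromic SMAD element GTCTAGAC (0.167%), whose letters contain neither CAGAC nor its reverse complement, and the PU.1 motif GAGGAAGT (2.44%) occurred in none of the 7 windows. The window of Ski held 87.6% G and C and that of Tgfbi 62.4%, where the median of all windows was 52.4%. The libraries measure RNA, and no binding to these sequences was measured.

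The counts on genes ranged from 4017875 to 5382915 per library, and 3 counts corresponded to between 0.524 and 0.902 normalized CPM (counts scaled to a common effective library size). Satb1, the gene named as deleted, had 7 and 5 counts in the WT-labeled libraries against 131 and 55 in the KO-labeled ones, opposite to the label, so that directions are given for the libraries as labeled. Xist, expressed in females, had 435 and 216 counts against 0 and 3, and the Y-linked Ddx3y 0 and 0 against 188 and 81, so that sex and label cannot be told apart. The label of a CD8+ sort was checked against markers. The 10 T cell genes (Cd3e, Cd8a and others) held between 0.00672% and 0.0106% of gene counts in the WT-labeled libraries and between 0.123% and 0.244% in the KO-labeled ones, while the 13 macrophage or monocyte genes (Lyz2, Csf1r, C1qa and others) held from 2.98% to 4.09% and from 2.36% to 3.08%. Dendritic cell genes held from 0.0502% to 0.0639% over the 4 libraries, melanoma genes from 0.0226% to 0.0268% against 0.132% to 0.239%, fibroblast or endothelial genes from 0.00192% to 0.00207% against 0.0198% to 0.136%, and platelet genes, of which Gp9 and Gp1bb had 0 counts everywhere, from 0.00741% to 0.0397%. The pathway was thus measured in RNA with far more macrophage than T cell transcripts, and in such bulk samples fewer cells of a type and less RNA per cell cannot be told apart.

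**Figure D1:**
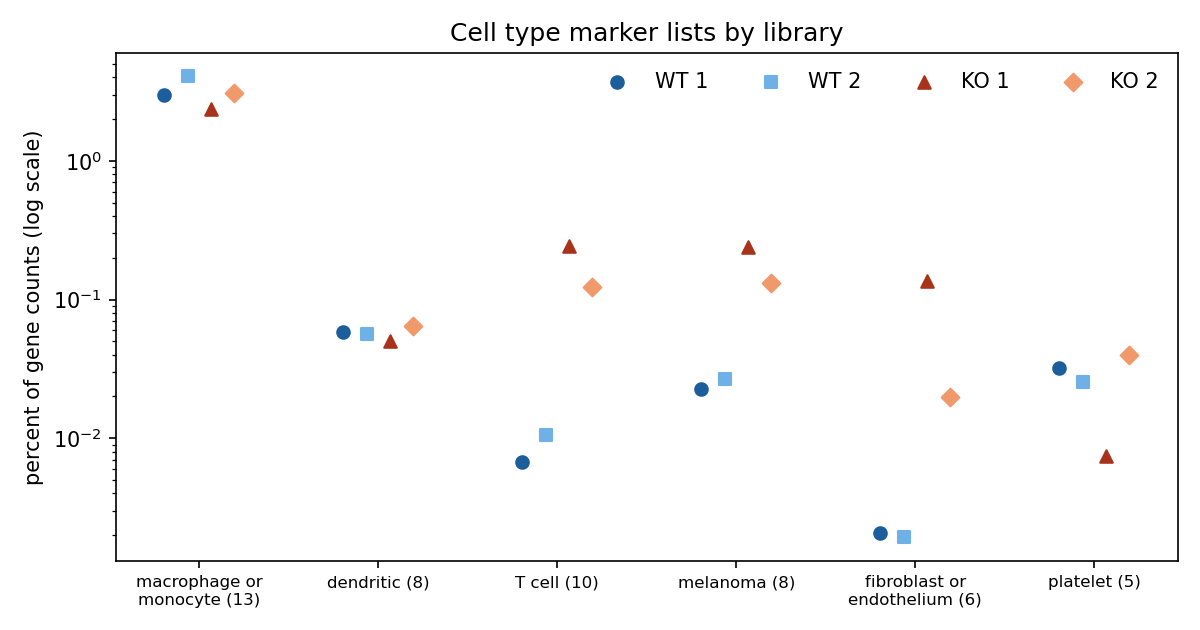
Percent of all gene counts (log scale) on each list of cell type markers in the 4 libraries, with the number of genes per list in parentheses. The macrophage or monocyte list holds the largest share in every library, from 2.36% to 4.09%, and the T cell, melanoma and fibroblast or endothelium lists are higher in both KO-labeled libraries.

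By setting the KO-labeled against the WT-labeled libraries, it was asked which pathway transcripts differ between the groups as labeled in cells sorted from tumors. None of the 9 members passed the threshold of 0.05 in the edgeR quasi-likelihood test adjusted over all 11837 genes tested, where 0.574% of all genes passed. The smallest adjusted p was 0.312, for Ski, and DESeq2 gave 0 members as well. At an unadjusted p under 0.05 there was 1 member, Ski, against 13.7% of all genes. As a description of levels in normalized CPM, the ligand Tgfb1, Tgfbi and Ski were lower in both KO-labeled libraries than in both WT-labeled ones, Skil was higher in both, and the groups overlapped for both receptors and all 3 SMAD genes. Groups that did not overlap were thus found for 4 of 9 members (44.4%), against 47.9% of all genes tested, with 3 lower (33.3%, against 22.6% of all genes) and 1 higher (11.1%, against 25.3%). The signs of the fitted fold changes of these 4 genes were the same under the 5 scalings run and with each library left out in turn, but the separation of the groups depended on the scaling. With library totals alone Tgfb1 overlapped and Tgfbr1 was higher without overlap. With the macrophage or monocyte list as library size Tgfb1, Tgfbi and Ski all overlapped, and Skil, Tgfbr1, Tgfbr2 and Smad2 were higher without overlap (44.4%, against 50.5% of all genes on that scale). Skil was the only member without overlap under all 5 scalings. The median log2 fold change of the members was -0.13, against 0.05 for all genes.

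**Figure D2:**
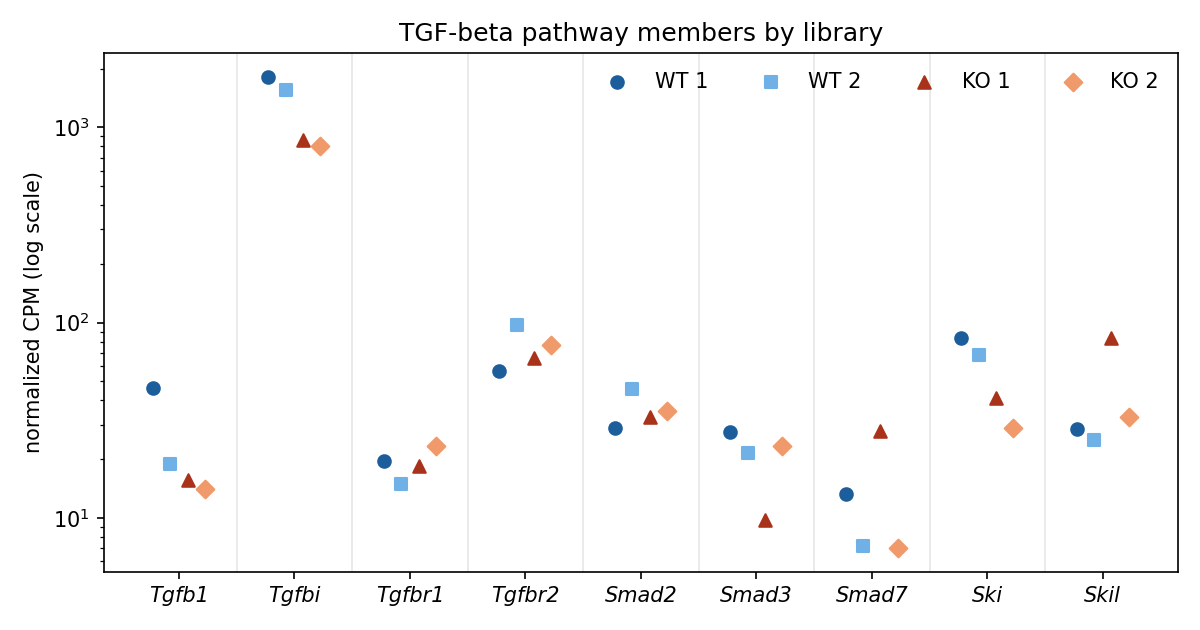
Normalized CPM (log scale) of the 9 genes in each of the 4 libraries. The points of the KO-labeled libraries lie below both of the WT-labeled ones for Tgfb1, Tgfbi and Ski and above both for Skil, and they are mixed for the other 5 genes; with the macrophage or monocyte list as library size Tgfb1, Tgfbi and Ski overlap, and Tgfb1 does so with library totals too.

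Tgfbi was by far the most abundant member. This gene (GRCm38/mm10 chromosome 13, 56609523 to 56639562, plus strand, ENSMUSG00000035493.10) held from 74.4% to 85.7% of the counts on all 9 genes. It had 6057 and 6312 counts in WT 1 and WT 2 and 4506 and 4598 in KO 1 and KO 2, or 1821, 1563, 857 and 802 normalized CPM. Both KO-labeled libraries were low and close to each other. The means were 1692 ± 182 (SD, n = 2) and 830 ± 38.8 (SD, n = 2), a log2 fold change of KO over WT of -1.03 ± 0.49 (standard error, SE, here and wherever a log2 fold change of a gene carries ±) (edgeR adjusted p = 0.394). With the counts on the macrophage or monocyte list as library size the log2 fold change was -0.31, on a scale where the median of all genes was 0.78.

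Tgfb1, the main ligand of immune cells (chromosome 7, 25687002 to 25705077, plus strand, ENSMUSG00000002603.15), had 153 and 76 counts against 82 and 81. In normalized CPM this was 46.0 and 18.8 against 15.6 and 14.1. WT 1 was high, and WT 2 lay only just above the KO-labeled libraries. The means were 32.4 ± 19.2 (SD, n = 2) and 14.9 ± 1.04 (SD, n = 2), with a log2 fold change estimated at -1.12 ± 0.56 (edgeR adjusted p = 0.414), which became -0.40 without WT 1. Within each library Tgfb1 made up between 1.19% and 2.46% of the counts on Tgfb1 and Tgfbi together. This share did not separate the groups, since both KO-labeled libraries, with 1.79% and 1.73%, lay between the 2 WT-labeled ones.

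Beside these 2 genes, which macrophages are known to express, the macrophage or monocyte list was lower in sum on the same scale, but not as a share of gene counts, where KO 2 with 3.08% lay above WT 1 with 2.98%. Its summed level was 35976 and 43129 normalized CPM in the WT-labeled libraries and 20138 and 28963 in the KO-labeled ones. Much of this sum and share came from Lyz2, whose groups overlapped. Lyz2 had 8828 and 14246 normalized CPM against 12901 and 10278.5. The share of the list without Lyz2 was not examined. The counts on the list, Lyz2 included, also served as library size where so named. Of the 13 genes of the list, 8 were lower without overlap in normalized CPM (22.6% of all genes were). Higher without overlap were 0 (25.3% of all genes), and 0 passed the threshold. No gene of the list was at 0 in all 4 libraries. Its part in the lower levels of Tgfbi and Tgfb1 was not tested beyond the change of scale given for Tgfbi, under which Tgfb1 had a log2 fold change of -0.44.

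In normalized CPM the receptors showed no separation of the groups. Tgfbr2, which binds the ligand (chromosome 9, 116084293 to 116175360, minus strand, ENSMUSG00000032440.13), had 187 and 391 counts against 345 and 441, or 56.2 and 96.8 against 65.6 and 77.0 normalized CPM. The lowest and the highest value were thus both in WT-labeled libraries. The log2 fold change was -0.10 ± 0.45 (edgeR adjusted p = 0.942), and its sign turned to 0.20 with library totals alone and to 0.63 with the macrophage or monocyte list as library size. Tgfbr1, the kinase that phosphorylates SMAD2 and SMAD3 (chromosome 4, 47353222 to 47414931, plus strand, ENSMUSG00000007613.15), had 65 and 60 counts against 97 and 133, or 19.5 and 14.9 against 18.5 and 23.2 normalized CPM. The log2 fold change was 0.28 ± 0.50 (edgeR adjusted p = 0.841), and the groups did not overlap with upper-quartile factors or the 2 other scalings named for Tgfbr2. In each library Tgfbr1 had fewer counts than Tgfbr2, with 25.8%, 13.3%, 21.9% and 23.2% of the counts of both in WT 1, WT 2, KO 1 and KO 2. Per kilobase of exon the level of Tgfbr2 was between 2.30 and 5.20 times that of Tgfbr1, and the groups overlapped.

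Of the receptor-activated SMADs, Smad2 (chromosome 18, 76241580 to 76310963, plus strand, ENSMUSG00000024563.16) had 96 and 184 counts against 173 and 201. The values of 28.9 and 45.6 normalized CPM in the WT-labeled libraries enclosed the 32.9 and 35.1 of the KO-labeled ones. The log2 fold change was -0.13 ± 0.45 (edgeR adjusted p = 0.922), and its sign turned to 0.18 with library totals alone and to 0.61 with the macrophage or monocyte list as library size. Smad3 (chromosome 9, 63646767 to 63757994, minus strand, ENSMUSG00000032402.12) had 92 and 87 counts against 51 and 134. In normalized CPM it was 27.7 and 21.5 against 9.70 and 23.4, so that KO 1 alone was low. The log2 fold change was -0.57 ± 0.57 (edgeR adjusted p = 0.691), became -0.08 without KO 1 and -1.37 without KO 2, and was 0.031 with the macrophage or monocyte list as library size. Smad2 took 51.1%, 67.9%, 77.2% and 60.0% of the counts of Smad2 and Smad3 in WT 1, WT 2, KO 1 and KO 2, with overlapping groups.

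The inhibitory Smad7 (chromosome 18, 75367529 to 75395935, plus strand, ENSMUSG00000025880.11) was the least abundant member in the WT-labeled libraries. It had 44 and 29 counts against 147 and 40, or 13.2 and 7.18 against 28.0 and 6.98 normalized CPM. KO 1 held the highest value and KO 2 the lowest, so that the mean of 17.5 ± 14.8 (SD, n = 2) in the KO-labeled libraries describes neither. The log2 fold change was 0.78 ± 0.73 (edgeR adjusted p = 0.671) and became -0.55 without KO 1. In KO 1 Smad7 took 39.6% of the counts of Smad7, Smad2 and Smad3 (exact Clopper-Pearson 95% interval 34.6% to 44.8%), against 19.0%, 9.67% and 10.7% in WT 1, WT 2 and KO 2. Such intervals cover counting error only, since amplified reads that carry no molecular identifier can stem from the same molecule.

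The related repressors Ski and Skil had fold changes of opposite sign, neither past the threshold. Ski (chromosome 4, 155154075 to 155222592, minus strand, ENSMUSG00000029050.15) had 279 and 275 counts in the WT-labeled libraries and 217 and 166 in the KO-labeled ones. In normalized CPM this was 83.9 and 68.1 against 41.3 and 29.0, lower in both KO-labeled libraries. The means were 76.0 ± 11.1 (SD, n = 2) and 35.1 ± 8.71 (SD, n = 2), with a log2 fold change estimated at -1.11 ± 0.44 (edgeR adjusted p = 0.312). With the macrophage or monocyte list as library size it was -0.36, on a scale where the median of all genes was 0.78. Skil (chromosome 3, 31095058 to 31122577, plus strand, ENSMUSG00000027660.16) had 95 and 101 counts against 436 and 189, or 28.6 and 25.01 against 83.0 and 33.0 normalized CPM. It was higher in both KO-labeled libraries, by far more in KO 1 than in KO 2. The means were 26.8 ± 2.50 (SD, n = 2) and 58.0 ± 35.3 (SD, n = 2), with a log2 fold change estimated at 1.11 ± 0.53 (edgeR adjusted p = 0.391). It became 0.30 without KO 1, and 1.59 without KO 2, where it passed the threshold (edgeR adjusted p = 0.0318, range 0.0318 to 0.99995 over its alternatives).

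**Figure D3:**
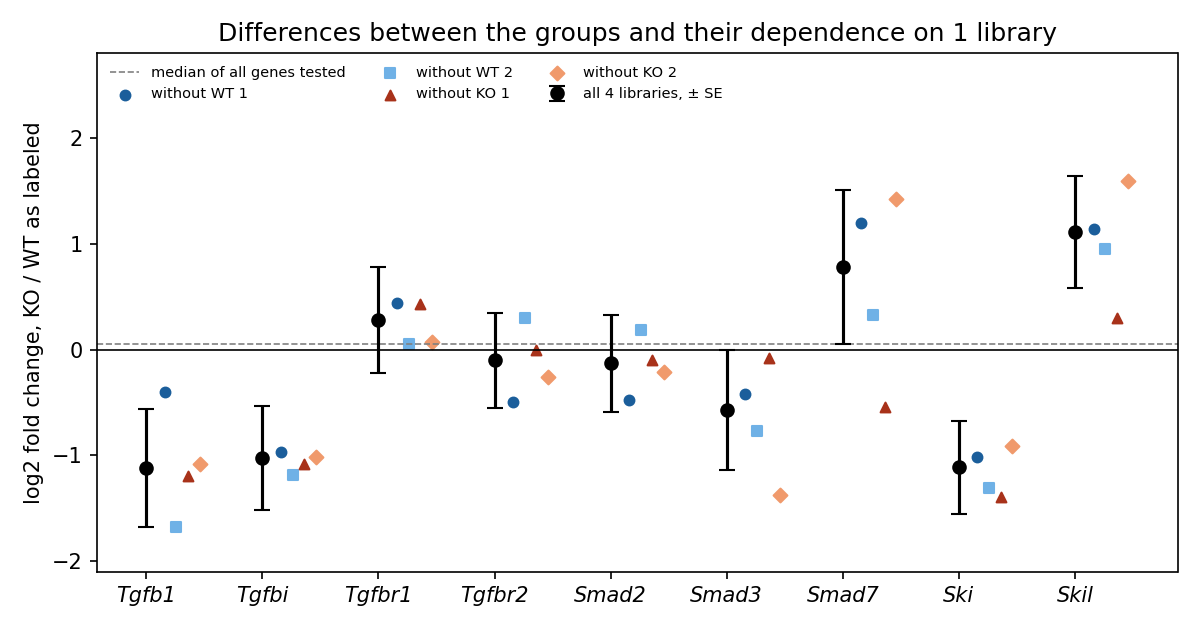
Log2 fold change of KO against WT as labeled for the 9 genes. Black points with bars give the value of all 4 libraries ± SE, colored points the value with 1 library left out, and the dashed line the median of all genes tested. The values of Ski stay between -1.40 and -0.91, while those of Smad7 run from -0.55 to 1.42.

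Because a ratio of genes within a library does not depend on scaling, Ski was also set against Skil library by library. As Ski was lower and Skil higher without overlap in normalized CPM, this ratio had to separate the groups. Its separation restates those levels and adds no support to them. Ski took 74.6% of the counts of both genes in WT 1 (exact Clopper-Pearson 95% interval 69.9% to 78.9%) and 73.1% in WT 2 (68.4% to 77.6%). In KO 1 it took 33.2% (29.6% to 37.0%) and in KO 2 46.8% (41.5% to 52.1%). The intervals of the groups did not overlap, and KO 1 and KO 2 differed from each other beyond counting error. Per kilobase of exon there was 5.12 and 4.75 times as much Ski as Skil in the WT-labeled libraries, and 0.867 and 1.53 times as much in the KO-labeled ones. The mean log2 ratio went from 2.30 ± 0.08 (SD, n = 2) to 0.20 ± 0.58 (SD, n = 2), a difference of -2.097 or 4.28-fold, and the difference lay between -2.51 and -1.69 with each library left out in turn. With 2 libraries in each group, the smallest p of a two-sided exact permutation test is 0.333, so no such test can pass the threshold. Of the 5 ratios computed, the groups overlapped in the other 4, namely Smad2 to Smad3, Tgfbr1 to Tgfbr2, Tgfb1 to Tgfbi, and Smad7 to the sum of Smad2 and Smad3.

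**Figure D4:**
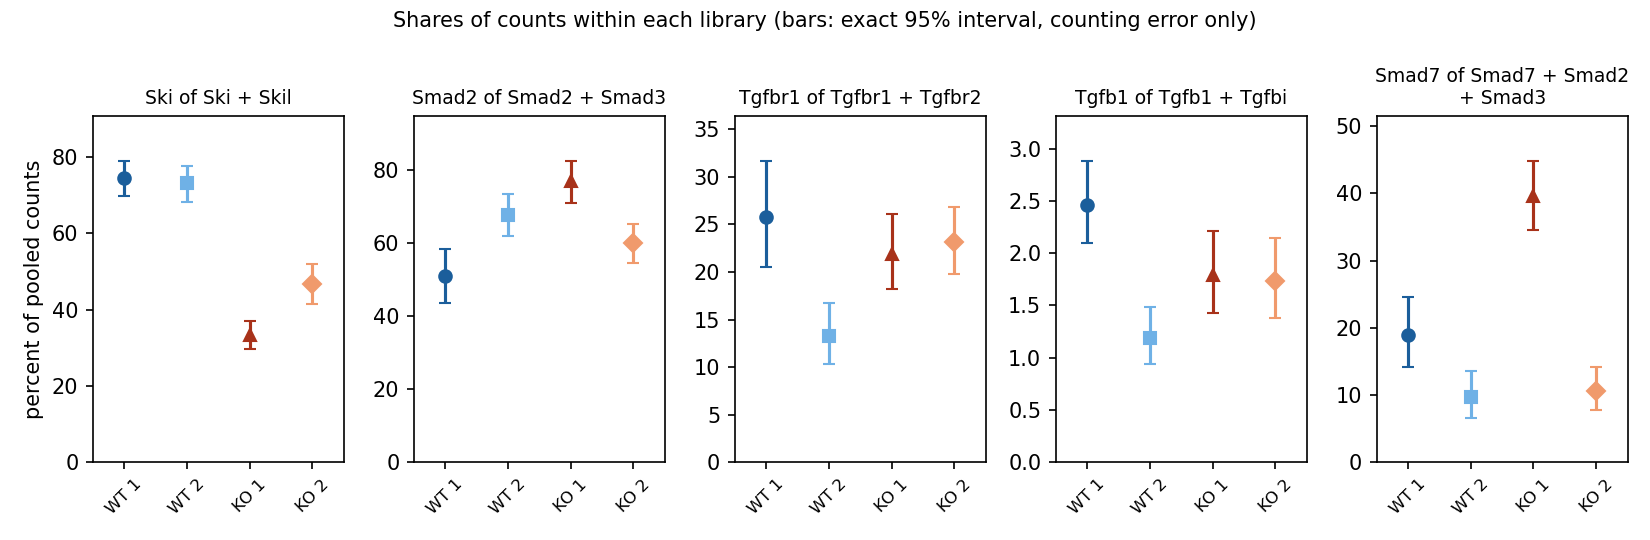
Percent of the counts of each pair of genes (for Smad7, of 3 genes) that fell on the first gene, by library, with exact 95% intervals that cover counting error only. The share of Ski among Ski and Skil is 73.1% or more in the WT-labeled libraries and 46.8% or less in the KO-labeled ones, and for the other 4 panels the groups overlap.

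The fibroblast or endothelium, T cell and melanoma lists were higher in the same libraries as Skil. The macrophage or monocyte, dendritic and platelet lists were not. The 6 genes of the fibroblast or endothelium list summed to 24.9 and 20.3 normalized CPM in the WT-labeled libraries, 1155 in KO 1 and 186 in KO 2, and none was at 0 in every library. The 3 collagen genes of this list, Col1a1, Col1a2 and Col3a1, were higher without overlap and passed the threshold, where 0.574% of all genes passed. Its endothelial genes were not higher: Pecam1 had 15.3 and 15.6 against 13.3 and 21.6 normalized CPM, and Cdh5 had 1 and 6 against 1 and 1 counts. Pdgfrb had 6 counts, all in KO 1. The 10 T cell genes summed to 81.2 and 112 against 2077 and 1158, with 9 past the threshold (0.574% of all genes) and 10 higher without overlap (25.3% of all genes). The melanoma list of 8 genes, of which 1 passed the threshold and 7 were higher without overlap, summed to 273 and 282 against 2041 and 1236. For these 3 lists KO 1 held the highest value, as it did for Skil and Smad7. Their part in the levels of Skil and Smad7 was not tested.

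Per kilobase of exon, the level of Tgfbi was 449 ± 48.2 (SD, n = 2) in the WT-labeled libraries, 32.8 times that of the next member. Ski followed with 13.7 ± 2.003, then Tgfbr2 with 9.35 ± 3.51, Tgfb1 with 6.43 ± 3.81, Smad3 with 4.44 ± 0.779, Smad2 with 4.24 ± 1.35, Skil with 2.76 ± 0.258, Tgfbr1 with 2.63 ± 0.506 and Smad7 with 2.26 ± 0.945 (SD, n = 2 for each). In that order Tgfbi and Ski, Ski and Tgfbr2, and Smad2 and Skil had ranges that did not overlap, and all other neighbors overlapped. In the KO-labeled libraries the order was Tgfbi with 220 ± 10.3, Tgfbr2 with 8.71 ± 0.978, Ski with 6.32 ± 1.57, Skil with 5.98 ± 3.65, Smad2 with 3.87 ± 0.174, Smad7 with 3.87 ± 3.28, Tgfbr1 with 3.19 ± 0.515, Smad3 with 2.99 ± 1.75 and Tgfb1 with 2.95 ± 0.206 (SD, n = 2 for each). There the only neighbors without overlap were Tgfbi and Tgfbr2, and Tgfbr2 and Ski. The place of Tgfb1 depended on the length used. Its mean level over the 4 libraries was 4.69 by merged exons and 9.19 by longest transcript, where Tgfbr2 had 9.13. The order within each group was not computed by longest transcript. No exon of a member shares bases with an exon of another gene in GENCODE M21. The annotation used for the counting is not known, so that overlaps in it were not examined.

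The other genes of the pathway were described by 5 lists with 56 genes, of which 41 were tested. None passed the edgeR threshold, and at an unadjusted p under 0.05 there were 3 of 41, of which 1 was lower and 2 were higher in the KO-labeled libraries, where 13.7% of all genes reached this level. Groups did not overlap for 34.1% of the 41, with 9 higher and 5 lower, against 47.9% of all genes (25.3% higher and 22.6% lower), so that both shares lay below those of all genes. Those 3 genes were picked out after their values were seen. Acvr1b, a type I receptor for activins that signals through SMAD2 and SMAD3, had 66 and 87 counts against 35 and 24 and a log2 fold change estimated at -1.93 ± 0.58 (edgeR adjusted p = 0.202, range 0.0406 to 0.642 over its alternatives, of which it passed only with a crossed replicate block, a fit added after seeing the data that pairs WT 1 with KO 2 and WT 2 with KO 1). Tgif2, a repressor that binds SMADs, had 4 and 13 counts against 82 and 69 and a log2 fold change estimated at 2.61 ± 0.75 (edgeR adjusted p = 0.181). This became 2.03 without WT 1 and 3.44 without WT 2. Tgif2 did not pass in DESeq2 (adjusted p = 0.0608) or with a replicate block (edgeR adjusted p = 0.155). It passed without the filter on low counts, with the macrophage or monocyte list as library size and with the crossed replicate block (edgeR adjusted p = 0.0452, 0.0412 and 0.0249). Ccn2, a matrix protein and classical target in fibroblasts, had 1 and 0 counts against 43 and 20. The ratio of its pooled counts was 42.2 with exact 95% bounds of 7.31 and 1694 for counting error alone (edgeR adjusted p = 0.144), and it passed under the same 3 alternatives and without KO 2 (edgeR adjusted p = 0.0163, 0.0373, 0.0319 and 0.0425, range 0.0163 to 0.378). On the opposite strand 5430405H02Rik shares 56.7% of the exonic bases of Tgif2 and Gm15270 23.2% of those of Ccn2. As the strand setting of the counting is not known, reads of these genes and their partners cannot be told apart, and 5430405H02Rik had a log2 fold change of 1.65 ± 0.67 (edgeR adjusted p = 0.320).

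Among ligands and genes of latency and activation, 7 of 13 were tested, with a median log2 fold change of 0.05, the value of all genes. The median was between 0.55 and 0.97 with 1 library left out and 1.27 without the filter, and more genes of the list were then tested. With a library left out, the change of libraries and the added genes were not told apart. The most abundant were Nrros, which anchors latent TGF-beta on myeloid cells, Thbs1, which encodes the activator thrombospondin 1, and Furin, the protease that cleaves the precursor. Nrros had 518 and 531 normalized CPM in the WT-labeled libraries and 207 and 614 in the KO-labeled ones, so that KO 1 alone was low. Thbs1 was the only one of the 7 tested genes without overlap (14.3%, against 47.9% of all genes), with 463 and 298 against 602 and 838, a log2 fold change estimated at 0.92 ± 0.49 (edgeR adjusted p = 0.446). Furin had 319 and 190 against 82.4 and 322 normalized CPM, with KO 1 again low. Without KO 2 both passed the threshold, with log2 fold changes of -1.38 for Nrros (edgeR adjusted p = 0.0432) and -1.66 for Furin (edgeR adjusted p = 0.0367), while without KO 1 they turned to 0.22 and 0.34. The adjusted p over the alternatives of each reached 0.99995. Of the other ligands Tgfb3 had 37 and 11 against 11 and 69 counts, and Tgfb2 had 2 counts, all in KO 1. Ltbp1, a latency protein of stroma, had 20 counts in KO 1 and 0 in the other 3 libraries. Itgb6, a subunit of an activating integrin of epithelium, had 0 counts in all 4, where 3 counts would have been at most 0.902 normalized CPM.

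Among other receptors of the family 7 of 10 were tested, with a median of -0.39 and 3 lower and 1 higher without overlap, in all 57.1% against 47.9% of all genes. The sign of the median depended on the libraries and settings, since it was 0.63 without KO 2, 0.18 without WT 2, 0.0081 without WT 1, 0.21 without a filter, 0.0028 with library totals alone and 0.44 with the macrophage or monocyte list as library size. Acvrl1 and Eng, a type I receptor and a coreceptor known from endothelium, and Bambi, a decoy receptor, were the most abundant. Acvrl1 had 196 and 174 normalized CPM against 51.8 and 166, a log2 fold change estimated at -0.76 ± 0.56 (edgeR adjusted p = 0.570), which became -1.87 and passed without KO 2 (edgeR adjusted p = 0.0160, range 0.0160 to 0.99995) and -0.16 without KO 1. Eng had 54.7 and 76.0 against 36.0 and 45.2 normalized CPM, with a log2 fold change of -0.69 that turned to 0.026 with the macrophage or monocyte list as library size (edgeR adjusted p = 0.513 on the main scale). Bambi had 21.3 and 17.1 against 30.4 and 19.9 normalized CPM and overlapped. The coreceptor gene Tgfbr3 had 0 counts in both WT-labeled libraries and 41 and 11 in the KO-labeled ones, and was not tested.

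Among the other SMADs 3 of 5 were tested, of which 66.7% did not overlap (1 lower and 1 higher), against 47.9% of all genes. Smad4, the partner shared by all branches, had overlapping groups, with 36.4 and 40.1 normalized CPM against 38.8 and 33.9 and a log2 fold change estimated at -0.07 ± 0.43 (edgeR adjusted p = 0.962). Smad1, of the bone morphogenetic protein branch, had 34.0 and 34.7 normalized CPM against 19.98 and 27.6, lower in both KO-labeled libraries with a log2 fold change of -0.53 (edgeR adjusted p = 0.637) that turned to 0.15 with the macrophage or monocyte list as library size. Smad5 of the same branch had 8.72 and 3.47 against 14.7 and 9.25 normalized CPM, higher without overlap (log2 fold change 0.98, edgeR adjusted p = 0.556). Its log2 fold change became 1.71 without WT 1 and 0.40 without WT 2. Smad9 had 0 counts in all 4 libraries.

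Among regulators of the receptors and SMADs 15 of 16 were tested, with a median of 0.36 and 4 higher and 1 lower without overlap, in all 33.3% against 47.9% of all genes. The most abundant were Fkbp1a, which binds the type I receptor, Dab2, an endocytic adaptor, and Tgif1, a corepressor related to Tgif2. Fkbp1a had 370 and 374 against 342 and 517 normalized CPM, and Dab2 had 246 and 314 against 148 and 604, so that for both KO 1 was lowest and KO 2 highest. Tgif1 had 227 and 194 against 269 and 270 normalized CPM, higher in both KO-labeled libraries with a log2 fold change estimated at 0.36 ± 0.43 (edgeR adjusted p = 0.748).

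Among 12 target genes 9 were tested, with a median of 0.11 and 2 higher and 0 lower without overlap, in all 22.2% against 47.9% of all genes. The median was -0.018 without WT 2 and 0.57 without WT 1. Junb, an AP-1 subunit, had 1611 and 1790 against 1526 and 2819 normalized CPM. Cdkn1a, the cell cycle inhibitor p21, had 1240 and 622 against 438 and 1056. Id2, an inhibitor of E proteins, had 962 and 324 against 504 and 413. For these abundant targets the groups overlapped. Itgae, the target gene for CD103 in CD8+ T cells, had 0 and 1 against 12 and 0 counts.

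**Figure D5:**
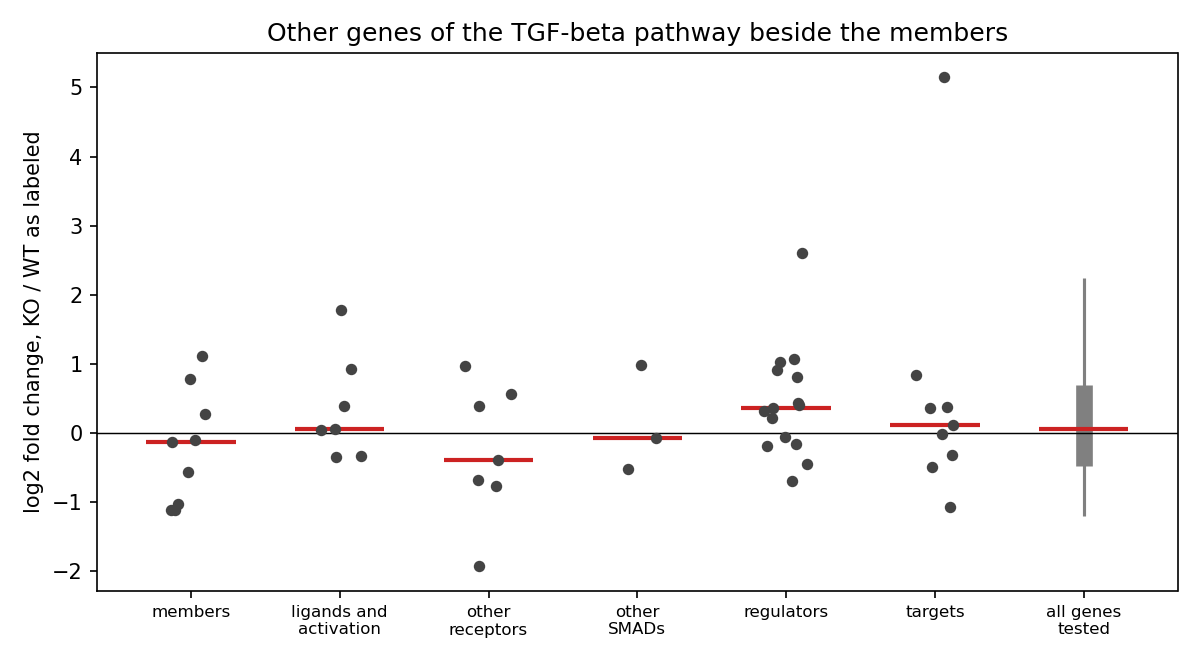
Log2 fold change of KO against WT as labeled for each tested gene of the 9 members and of the 5 lists (points), with medians as red lines. The gray bar for all genes tested spans the 25th to 75th percentile, from -0.48 to 0.70, and its thin line the 5th to 95th; the largest value, 5.15, is that of Ccn2.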

How the data were processed

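Polyadenylated RNA of 4 libraries, 2 labeled WT and 2 labeled KO, was analyzed. The authors deposited read counts per gene symbol, 1 table per library; the submitters' processing notes name mm10, HISAT2 2.1.0 and HTSeq 0.11.0. The study's methods give these as aligner and counter, for other libraries, and are assumed to apply here. The annotation and strand setting are not given in the sources used here. Rows that name no gene were dropped; reads on genes were between 20.5% and 28.8% of all reads in a table. The test was edgeR 4.0.16 under R 4.3.3 (filterByExpr with at least 10 counts and 15 in total, TMM factors, then glmQLFit and glmQLFTest without covariates, two-sided, Benjamini-Hochberg adjustment over all genes, prior count 0.125). As SE served the absolute log2 fold change over the root of its F statistic. Normalized CPM used TMM-scaled library sizes, and levels per kilobase used merged exon lengths of GENCODE M21 (GRCm38), which named 96.4% of the rows. The scripts were tested on simulated data. Promoter bases came from RefSeq (GRCm38.p6).

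The members and lists were chosen with earlier results of these data known. Named were all members, genes of the 5 lists past the threshold (up to 5 each) and the 3 most abundant tested genes of each list; other genes were picked after their values were seen. Alternatives were other scalings and filters, DESeq2 1.42.0, a replicate block, a prior count of 2, transcript length and each library left out. Plots used matplotlib 3.10.9 under Python 3.11.15.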

Additional observations from a re-analysis of the deposited data

How the results depend on the processing

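For the 9 members, 117 of 126 values under alternatives kept the direction and stayed short of the threshold; the smallest adjusted p came from leaving out KO 2. With library totals alone the log2 fold change of Tgfbr2 turned to 0.20 and that of Smad2 to 0.18. With the macrophage or monocyte list as library size Tgfbr2 turned to 0.63, Smad2 to 0.61 and Smad3 to 0.031, and among list genes Nrros turned to 0.24, Furin to 0.20, Eng to 0.026, Smad1 to 0.15, Smad4 to 0.67, Id2 to 0.20 and Cdkn1a to 0.25. With library totals alone Smad4 turned to 0.26 and Cdkn1a to 0.023. These scalings moved the median of all genes from 0.05 to 0.39 and 0.78, so that they raise every value by construction.

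The number of genes past the threshold was 68 (65 higher and 3 lower), and 134 with library totals alone, 550 with the macrophage or monocyte list, 583 without a filter (505 higher and 78 lower), 416 in DESeq2 (350 higher and 66 lower) and 215 with a replicate block. It was 113 without WT 1, 228 without WT 2, 123 without KO 1 (99 higher and 24 lower) and 1248 without KO 2 (725 higher and 523 lower). With 1 library left out, the lone library of a group is assumed to vary like the other group. The deviations of same-numbered libraries from their group means correlated at -0.18, and the block on crossed numbers, added after seeing the data, gave 647 (535 higher and 112 lower). As the numbers are not stated to mark a shared origin, the libraries share only a number; under the replicate block no member passed.

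With 1 library left out, log2 fold changes ranged from -1.40 to -0.91 for Ski, 0.30 to 1.59 for Skil, -0.48 to 0.19 for Smad2, -1.37 to -0.08 for Smad3, -0.55 to 1.42 for Smad7, -1.68 to -0.40 for Tgfb1, -1.18 to -0.97 for Tgfbi, 0.05 to 0.44 for Tgfbr1 and -0.49 to 0.30 for Tgfbr2; the signs of Smad2 and Tgfbr2 turned without WT 2 and that of Smad7 without KO 1. List genes that changed sign ranged from -1.38 to 0.22 (Nrros), -1.66 to 0.34 (Furin), -0.16 to 0.47 (Fkbp1a), -0.95 to 1.10 (Dab2), -1.12 to 0.44 (Id2), -1.12 to 0.22 (Cdkn1a) and -0.19 to 0.72 (Junb). List medians ranged from 0.55 to 0.97 for ligands and activation, -0.54 to 0.63 for other receptors, -0.42 to -0.20 for other SMADs, 0.23 to 0.41 for regulators and -0.018 to 0.57 for targets. The median of ligands and activation was 0.77 with the macrophage or monocyte list and 1.27 without a filter. That of other receptors was 0.44 with the macrophage or monocyte list. That of other SMADs was 0.26 with library totals, 0.67 with the macrophage or monocyte list and -0.32 without a filter. That of regulators was 0.70 and 1.03 under those 2 scalings. Per kilobase of the longest transcript, the mean level over the 4 libraries was 9.19 for Tgfb1 and 420 for Tgfbi, above the values by merged exons by construction. With 29 to 153 counts per library for Smad7 and Tgfb1, counting error adds to the spread between libraries.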
